A study of Mus musculus with 18 samples.

Results

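The 10 genes described here are markers of neutrophils, the short-lived white blood cells that leave the blood first when a tissue is injured. They were chosen by name, as the rows of the long RNA gene count table whose symbol was S100a8, S100a9, Ly6g, Mpo, Cd177, Csf3r, Retnlg, Fpr1, Fpr2 or Ltf. All 10 were found among the 54752 genes of the table, and 9 of them passed the filter on low counts. Ly6g did not pass it and is given by its values.

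The RNA came from livers of male C57BL/6 mice that were 6 weeks old when the experiment began. The labels describe 45 mice in 3 arms of 15, of which 6 livers per arm, taken in week 22, were sequenced. Control mice were injected with olive oil in the abdomen and drank water by gavage. CCl4 mice were injected with carbon tetrachloride 2 times a week and also had water by gavage. The third group, CCl4_PTH, had the same injections of carbon tetrachloride together with PTH by gavage every day. PTH, which the labels also spell PZH, is Pien Tze Huang, a traditional Chinese preparation. Carbon tetrachloride is a solvent that hepatocytes turn into a toxic radical, and repeated injection gives chronic injury and scarring. Libraries keep the replicate numbers of their labels, and each library is 1 mouse.

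Neutrophils are made in the bone marrow under the growth factor G-CSF, which acts through the receptor encoded by Csf3r. They pack proteins into granules as they mature: myeloperoxidase (Mpo) and proteases first, lactoferrin (Ltf) and gelatinases later. In tissue they follow chemokines and bacterial or mitochondrial peptides, which they sense through formyl peptide receptors, and they release the alarmins S100a8 and S100a9. A healthy liver holds few of them, in its sinusoids, and they gather around dying hepatocytes after toxic injury. In a piece of whole tissue, more neutrophils and more RNA per neutrophil cannot be told apart.

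Total counts were 67.2 M to 118.9 M per library, of which 357 ribosomal RNA loci took 30.6% to 55.8%. Levels are given as CPM, counts scaled to a common library size with TMM factors in edgeR. The hepatocyte gene Alb had a median of 35521 CPM in control and 24878 CPM in CCl4 libraries. One library stands apart for most of the genes described here. In CCl4_PTH 1 the members summed to 199 CPM, against 15.2 to 26.0 CPM in the other 5 CCl4_PTH libraries, 15.4 to 117 CPM in CCl4 and 2.76 to 6.53 CPM in control libraries. Each comparison that involves CCl4_PTH is therefore given with and without it. The next highest sum, 117 CPM, was that of CCl4 2, followed by CCl4 7 with 70.9 CPM.

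The bases in front of 6 of the genes are shown because they hold a match to a sequence bound by C/EBP or PU.1, factors that drive granulocyte genes in the bone marrow. They come from the RefSeq promoter table for GRCm38.p6, end before the first annotated base of the gene in both RefSeq and GENCODE M21, and are written 5′ to 3′ on the strand of the gene. Capitals mark matches to C/EBP (TTNNGCAA), PU.1 (GAGGAAGT) or the TATA box (TATAAA), on either strand.
S100a8 (chr3:90668821-90668977, plus strand): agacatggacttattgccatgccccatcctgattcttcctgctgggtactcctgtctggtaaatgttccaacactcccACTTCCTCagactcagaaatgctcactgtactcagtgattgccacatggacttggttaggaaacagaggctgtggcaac
S100a9 (chr3:90695722-90695971, minus strand): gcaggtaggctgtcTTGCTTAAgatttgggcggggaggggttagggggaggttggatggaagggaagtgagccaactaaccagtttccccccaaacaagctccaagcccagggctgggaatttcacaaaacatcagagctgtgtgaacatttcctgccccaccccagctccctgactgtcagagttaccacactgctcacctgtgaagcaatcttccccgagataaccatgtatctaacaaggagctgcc
Ly6g (chr15:75155011-75155239, plus strand): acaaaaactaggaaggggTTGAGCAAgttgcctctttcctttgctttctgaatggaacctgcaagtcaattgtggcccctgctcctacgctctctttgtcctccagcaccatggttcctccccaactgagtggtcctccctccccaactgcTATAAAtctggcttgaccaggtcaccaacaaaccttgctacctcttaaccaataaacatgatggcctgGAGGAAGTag
Mpo (chr11:87793534-87793580, plus strand): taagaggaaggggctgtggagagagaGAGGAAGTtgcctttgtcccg
Retnlg (chr16:48872358-48872607, plus strand): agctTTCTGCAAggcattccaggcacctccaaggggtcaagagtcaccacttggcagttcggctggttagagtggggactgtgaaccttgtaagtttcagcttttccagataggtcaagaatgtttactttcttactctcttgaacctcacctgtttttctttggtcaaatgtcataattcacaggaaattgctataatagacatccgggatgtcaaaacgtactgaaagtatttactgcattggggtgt
Ltf (chr9:111019042-111019270, plus strand): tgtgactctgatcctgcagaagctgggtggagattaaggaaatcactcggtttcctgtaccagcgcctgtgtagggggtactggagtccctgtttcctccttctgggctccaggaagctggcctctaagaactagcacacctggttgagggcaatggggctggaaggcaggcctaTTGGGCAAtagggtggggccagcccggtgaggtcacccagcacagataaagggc

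All 10 members had an entry in that table, and the 250 bases before each start were searched. The C/EBP letters occurred in 4 of the 10 members (S100a9, Ly6g, Retnlg and Ltf), against 9.56% of 32851 promoters in the table. The PU.1 letters occurred in 3 members (S100a8, Ly6g and Mpo), against 2.44% of promoters. TATAAA occurred in 5 members and in 12.4% of promoters. The NF-kB consensus was found in 0 of the 10 and in 1.41% of promoters. These are matches of letters in a window, and binding was not measured. No C/EBP or PU.1 match lay in front of Cd177, Csf3r, Fpr1 or Fpr2.

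In CCl4 livers all 9 tested members rose over control, where 26.3% of the 21840 tested genes rose (edgeR, adjusted p under 0.05). Mpo and Cd177, with 0 counts in every control, and Ltf, with at most 8, could pass the filter only through injured libraries. The direction of their change was therefore all but fixed once they were tested, though not its size. The lowest CCl4 library lay above the highest control library for 6 of the 9, which 14.8% of tested genes also showed. The median log2 fold change of the 9 was 4.93, against 0.05 over all tested genes. The rises ran from 1.86 log2 units for the receptor Fpr1 to at least 194-fold for Cd177, a surface protein that had 0 counts in every control library. With CCl4_PTH 1 left out of the fit, 9 of 9 again rose, beside 25.8% of tested genes, with a median of 4.89. The sizes rest in part on CCl4 2. Without that library 9 of 9 rose, with a median of 4.08, against 0.02 over all tested genes. S100a8 was then at 3.93 ± 1.17 in place of 4.98, and Cd177 at least 116-fold and Mpo at least 56.8-fold higher than control. Over the fits that left out 1 library, 9335 to 10918 genes were called in either direction.

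**Figure D1:**
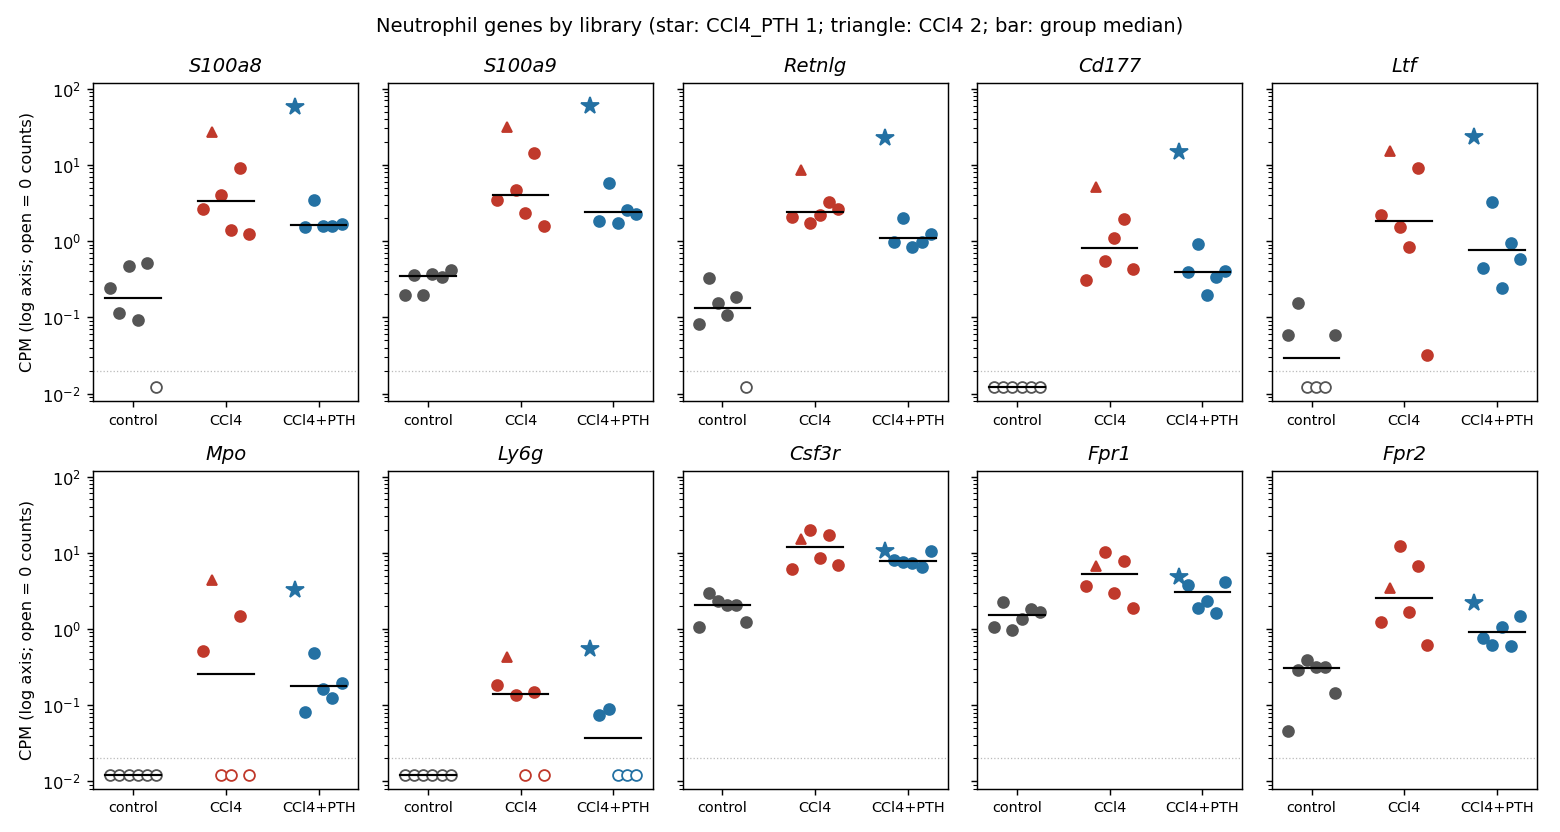
CPM of the 10 neutrophil genes in each of 18 liver libraries, on a log axis, with open symbols for 0 counts and a bar at each group's median. CCl4_PTH 1 (star) lies above the other 17 libraries for S100a8, S100a9, Retnlg, Cd177, Ltf and Ly6g, while Csf3r, Fpr1 and Fpr2 are highest in a CCl4 library.

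S100a8 and S100a9 encode the subunits of calprotectin, a calcium- and zinc-binding protein that fills the neutrophil cytosol and also occurs in monocytes. S100a8 (ENSMUSG00000056054, chr3:90668978-90670035, plus strand, 3 exon blocks) had 0, 0.179 and 0.519 CPM in control libraries as the lowest, median and highest value. In CCl4 the same 3 values were 1.22, 3.36 and 26.7 CPM, the highest in CCl4 2 and the next, 9.09 CPM, in CCl4 7. All 6 CCl4 libraries lay above all 6 controls. The log2 fold change was 4.98 ± 1.29 (SE, edgeR adjusted p = 0.00425). S100a9 (ENSMUSG00000056071, chr3:90692632-90695721, minus strand) had 0.195, 0.349 and 0.420 CPM in control and 1.57, 4.07 and 30.9 CPM in CCl4 libraries, again without overlap. Its log2 fold change was 4.93 ± 1.13 (SE, edgeR adjusted p = 0.00179). The pair kept a narrow ratio to each other in injured livers, where S100a9 had 1.15 to 1.63 counts per count of S100a8 in CCl4 and 1.04 to 1.66 in CCl4_PTH libraries.

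Mpo (ENSMUSG00000009350, chr11:87793581-87804413, plus strand) encodes myeloperoxidase, the enzyme of the primary granules, whose mRNA is made mainly by precursors in the marrow. It had 0 counts in all 6 control libraries. Of the CCl4 libraries, 3 (CCl4 4, 5 and 8) also had 0 counts, and the others had 42 (CCl4 1), 161 (CCl4 7) and 339 (CCl4 2), the last being 4.39 CPM. The mean was at least 130-fold higher in CCl4 than in control, taken against a floor of 3 counts over the control group (edgeR adjusted p = 0.0168). S100a8 was read in all 6 of these livers, and the rise of Mpo rests on 3 of them. The antisense gene Gm11505 overlaps exons of Mpo, and because no source used here states whether counting used strand, its reads cannot be told from those of Mpo. Ltf (ENSMUSG00000032496, chr9:111019271-111042767, plus strand) encodes lactoferrin, the iron-binding protein of the secondary granules. It ranged from 0 to 0.152 CPM in control, with 3 libraries at 0, and from 0.0322 CPM (CCl4 8) to 15.3 CPM (CCl4 2) in CCl4, with a median of 1.85 CPM. The ranges overlapped through CCl4 8, and 5 of 6 CCl4 libraries lay above every control. Its log2 fold change was 6.74 ± 1.64 (SE, edgeR adjusted p = 0.00279).

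Cd177 (ENSMUSG00000052212, chr7:24743983-24760311, minus strand) encodes a glycosylphosphatidylinositol-anchored protein of the neutrophil surface. With 0 counts in the 6 controls, it had 0.309, 0.817 and 5.11 CPM in CCl4 as the lowest, median and highest value. Every CCl4 library held it, and the difference had an edgeR adjusted p of 0.00535. Ly6g (ENSMUSG00000022582, chr15:75155240-75159126, plus strand) encodes the antigen seen by the antibodies that define mouse neutrophils in flow cytometry. It was the least abundant member per kilobase of exon in CCl4_PTH libraries and had 78 counts over the 6 CCl4 libraries, which were between 0 (CCl4 5 and 8) and 0.428 CPM (CCl4 2), and 0 in all controls. The mean was at least 18.7-fold higher in CCl4, and in a fit without the filter its edgeR adjusted p was 0.0281. Retnlg (ENSMUSG00000022651, chr16:48872621-48874496, plus strand), a resistin-like secreted protein of neutrophils, had 0, 0.132 and 0.324 CPM in control and 1.70, 2.42 and 8.49 CPM in CCl4 libraries. The groups did not overlap, and the log2 fold change was 4.62 ± 0.995 (SE, edgeR adjusted p = 0.00101).

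The 3 receptor genes were read in every control library. Csf3r (ENSMUSG00000028859, chr4:126024550-126044440, plus strand) had 1.07, 2.08 and 3.01 CPM in control and 6.16, 11.9 and 19.6 CPM in CCl4 libraries, with no overlap. The rise was 2.65 ± 0.31 log2 units (SE, edgeR adjusted p = 2.26e-06), the smallest p of the 9. Fpr1 (ENSMUSG00000045551, chr17:17876471-17883940, minus strand) encodes the high-affinity receptor for formylated peptides. It had 0.957, 1.51 and 2.29 CPM in control and 1.90, 5.23 and 10.2 CPM in CCl4 libraries. Only CCl4 8 lay within the control range, and the log2 fold change was 1.86 ± 0.38 (SE, edgeR adjusted p = 0.000561). Fpr2 (ENSMUSG00000052270, chr17:17887824-17893952, plus strand) encodes a related receptor that also binds serum amyloid A and annexin A1. It had 0.0463, 0.303 and 0.391 CPM in control and 0.623, 2.55 and 12.4 CPM in CCl4 libraries, all above control. Its log2 fold change was 4.14 ± 0.69 (SE, edgeR adjusted p = 9.35e-05). Fpr2 shares exon bases with Fpr3 on the same strand. Fpr3 itself had 0 counts in control and CCl4_PTH libraries but was counted in CCl4, and the division of reads between the genes was not tested. For all 3 receptors the highest library was CCl4 4, not CCl4 2.

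Per kilobase of exon, the order of the members changed with injury. In control libraries Fpr1 was first, with a median of 1.14 CPM per kb, above S100a9 in 6 of 6 libraries. S100a9 (0.668), Csf3r (0.576), S100a8 (0.258), Fpr2 (0.234) and Retnlg (0.222 CPM per kb) followed, and neighbours in this run of 5 traded places in 2 or 3 of 6 libraries. In CCl4 libraries S100a9 came first with a median of 7.80 CPM per kb and lay above S100a8 (4.84) in 6 of 6. Retnlg (4.08), Fpr1 (3.95), Csf3r (3.30) and Fpr2 (1.96 CPM per kb) came next, and neighbours from S100a8 to Fpr2 traded places in 2 of 6 libraries. Ltf, Cd177, Ly6g and Mpo were below them, with medians of 0.538, 0.288, 0.150 and 0.0759 CPM per kb. Of all member counts, Csf3r, Fpr1 and Fpr2 together made up 79.0% to 86.8% in control libraries. In CCl4 they made up 77.0% in CCl4 4, near control, 44.5% to 62.7% in 4 libraries and 21.8% in CCl4 2. In CCl4_PTH they made up 38.3% to 72.0% in 5 libraries and 8.77% in CCl4_PTH 1.

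In CCl4_PTH livers, as a group of 6, 1 of the 9 tested members fell relative to CCl4, where 4.95% of tested genes fell, and none rose, where 7.1% did (edgeR). That member was Fpr2, with 0.604, 0.916 and 2.19 CPM in CCl4_PTH as the lowest, median and highest value. All 6 lay below the CCl4 median of 2.55 CPM, although the ranges overlapped. The log2 fold change was -1.96 ± 0.60 (SE, edgeR adjusted p = 0.0411). This call was lost in 11 of the 18 fits that left out 1 library, with an adjusted p of up to 0.163 without CCl4 4, the library highest for Fpr2. The other receptors had -0.84 ± 0.37 (Fpr1, edgeR adjusted p = 0.144) and -0.54 ± 0.29 (Csf3r, edgeR adjusted p = 0.236). For both, all 6 CCl4_PTH libraries lay below the CCl4 median. The remaining 6 tested members had log2 fold changes from -0.58 (Mpo) to 0.86 (Cd177), with edgeR adjusted p from 0.689 to 0.999, so that no difference was resolved for them at this spread.

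For 7 members CCl4_PTH 1 lay far above the rest of its group. S100a8 was 57.7 CPM there and 1.53 to 3.50 CPM in the other 5 libraries of the group. S100a9 was 60.0 CPM against 1.72 to 5.81 CPM, and Retnlg 22.2 CPM against 0.834 to 2.02 CPM. Cd177 was 14.8 CPM against 0.195 to 0.910 CPM. Ltf reached 23.4 CPM against 0.242 to 3.25 CPM, Mpo 3.21 CPM against 0.0804 to 0.488 CPM, and Ly6g 0.553 CPM against 0 to 0.0888 CPM. For these 7 genes the 1 library held 77.4% to 87.8% of the counts of its group. It was the highest of all 18 libraries for 6 of them, Mpo being higher in CCl4 2. Csf3r, at 10.5 CPM, lay inside the range of the other 5 (6.49 to 10.7 CPM). Fpr1 (4.82 CPM, against 1.61 to 4.15) and Fpr2 (2.19 CPM, against 0.604 to 1.48) lay just above it.

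With CCl4_PTH 1 left out, all 9 tested members had a negative log2 fold change against CCl4, from -2.31 (Mpo) to -0.58 (Csf3r), with a median of -1.78 beside -0.03 over all genes. Of the 9, 2 passed as lower, Retnlg and Fpr2, against 7.06% of the 22203 genes tested in that fit. Retnlg had a log2 fold change of -1.46 ± 0.49 (SE, edgeR adjusted p = 0.0451), and all 5 libraries lay below the CCl4 median of 2.42 CPM. Fpr2 had -2.23 ± 0.64 (SE, edgeR adjusted p = 0.0218). The others did not pass, although 6 of the 9 had an unadjusted p under 0.05, against 2 of 9 with the library included. S100a9 had -1.73 ± 0.65 (edgeR adjusted p = 0.0787), S100a8 -1.91 ± 0.77 (edgeR adjusted p = 0.102) and Cd177 -1.78 ± 0.71 (edgeR adjusted p = 0.106). Fpr1 had -0.98 ± 0.38 (edgeR adjusted p = 0.0862). Ltf, at -2.13 ± 1.01, and Mpo, at -2.31 ± 1.44, had the widest errors of the 9. For 0 of the 9 did all 5 libraries lie below all CCl4 libraries, which 4.49% of tested genes showed. In S100a8, for example, CCl4 8 and CCl4 5 had 1.22 and 1.41 CPM, below all 5. With CCl4 2, the highest CCl4 library for the summed members, left out as well, a fit chosen after seeing the data, the 9 fold changes stayed negative with a median of -0.95. Fpr2 alone of the 9 passed in that fit (-2.33, edgeR adjusted p = 0.0282). There 1483 of 21957 tested genes fell, and 15.3% were called in either direction. Retnlg, at -0.97, did not pass (edgeR adjusted p = 0.140).

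**Figure D2:**
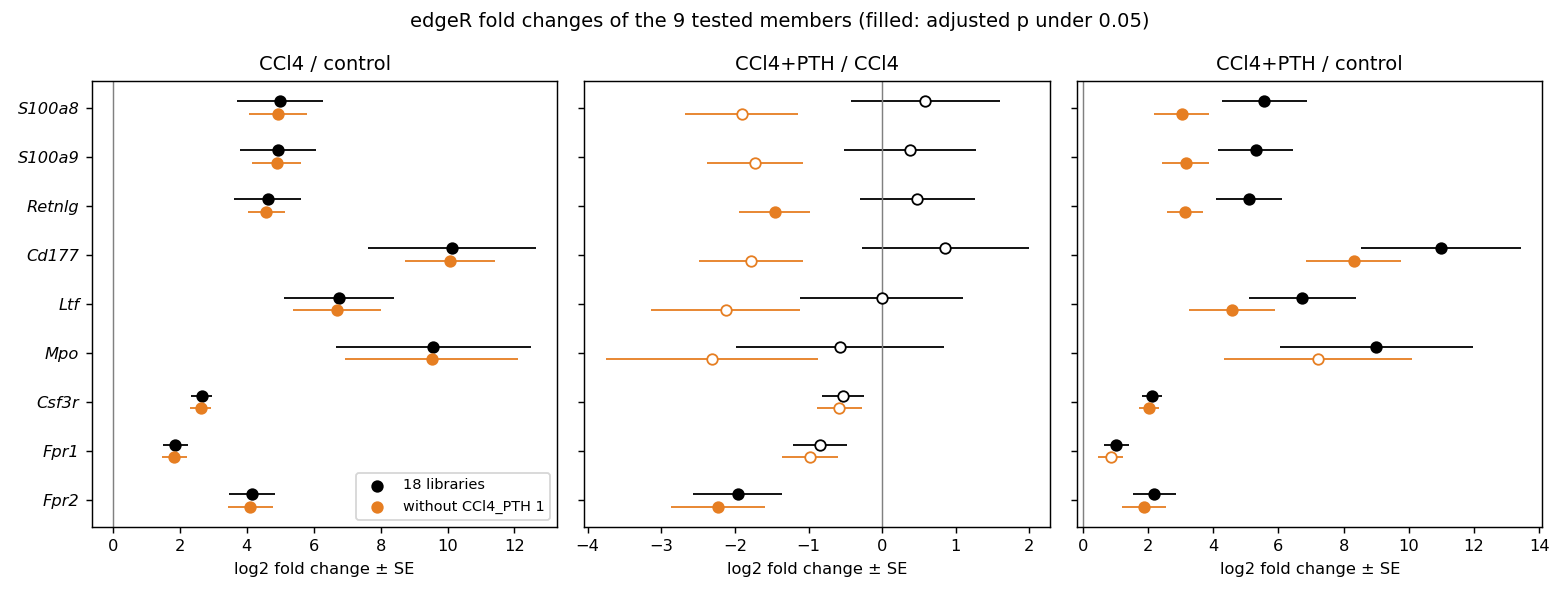
Log2 fold changes with SE of the 9 tested members in the 3 comparisons, from edgeR fits of 18 libraries (black) and of 17 libraries without CCl4_PTH 1 (orange), filled where the adjusted p was under 0.05. Leaving out the library moves S100a8, S100a9, Retnlg and Cd177 from above to below 0 in the middle panel and hardly moves Csf3r, Fpr1 and Fpr2.

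Against control, 9 of 9 tested members rose in CCl4_PTH livers with all libraries, beside 17.4% of tested genes (edgeR). Here too Mpo, Cd177 and Ltf could pass the filter only through injured libraries. Mpo (edgeR adjusted p = 0.0400) and Fpr1 (0.0493) passed narrowly, and lost the call in 11 and 12 of the 18 fits that left out 1 library, controls included. Without CCl4_PTH 1, 7 of 9 rose, beside 15.9%, and Mpo (edgeR adjusted p = 0.0885) and Fpr1 (edgeR adjusted p = 0.112) did not pass. The remaining 5 CCl4_PTH libraries lay above every control library for 8 of the 9, Fpr1 being the exception, which 11.5% of tested genes also showed. S100a8 was higher by 3.04 ± 0.85, S100a9 by 3.16 ± 0.72 and Retnlg by 3.12 ± 0.55 log2 units in these 5 livers. With all 6 libraries the same 3 values were 5.57 ± 1.31, 5.30 ± 1.15 and 5.10 ± 1.01. Csf3r was less moved by the library, with 2.11 ± 0.30 and 2.03 ± 0.31. Mpo had 10 to 44 counts in each of the 5 libraries and 0 in each control. Both comparisons with CCl4_PTH use the same 6 libraries of that group, and both comparisons with CCl4 the same 6 CCl4 libraries, so they are not independent of each other.

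CCl4_PTH 1 differed from its group in more than the members. The 22 hepatic acute phase genes summed to 73447 CPM in it and to 9378 to 12394 CPM in the other 5, and 21 of the 22 were highest there among all 18 libraries. Saa1, a serum amyloid A of hepatocytes, was 1912 CPM, which was 92.3 times the median of the other 5. Lcn2, lipocalin 2, which both neutrophils and injured hepatocytes make, was 1475 CPM against 16.3 to 25.6 CPM. Among chemokines that attract neutrophils through Cxcr2, Cxcl1 was 88.6 CPM against 4.24 to 9.04 CPM and Cxcl2 15.5 CPM against 0.109 to 0.500 CPM. Cxcr2 itself was 7.16 CPM against 0.374 to 1.03 CPM. Csf3, the gene of G-CSF, was 0.0341 CPM against 0 to 0.126 CPM. The granule genes Ngp (25.1 CPM, 69.3 times the median of the other 5), Mmp8 (16.9 CPM, 39.9 times) and Elane (1.65 CPM, 27.7 times) were raised in it as well. Camp, a cathelicidin of the same granules as Ngp, was 0.971 CPM and 12.5 times that median. The stefin genes Stfa1, Stfa2 and BC100530, named after their values were seen, had 84, 217 and 159 counts in this library and 0 in the other 17. They belong to a family of near-identical copies, so that their reads may be split wrongly among them.

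Summed markers of other leukocytes were not above the rest of the group in that library. The 10 pan-leukocyte genes summed to 233 CPM in it, within the 181 to 292 CPM of the other 5. The 16 monocyte and macrophage markers summed to 360 CPM, within 341 to 588 CPM, though single markers differed. Of the 16, 8 lay below all of the other 5 and 4 above them, and 2 were the highest of all 18 libraries. B and T cell markers summed to 7.68 CPM, below the 10.8 to 34.9 CPM of the other 5. Red cell and platelet genes summed to 69.2 CPM, below 200 to 321 CPM. Hepatocyte genes summed to 35075 CPM, against 35197 to 46571 CPM. The part of these differences in the members' levels was not tested.

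**Figure D3:**
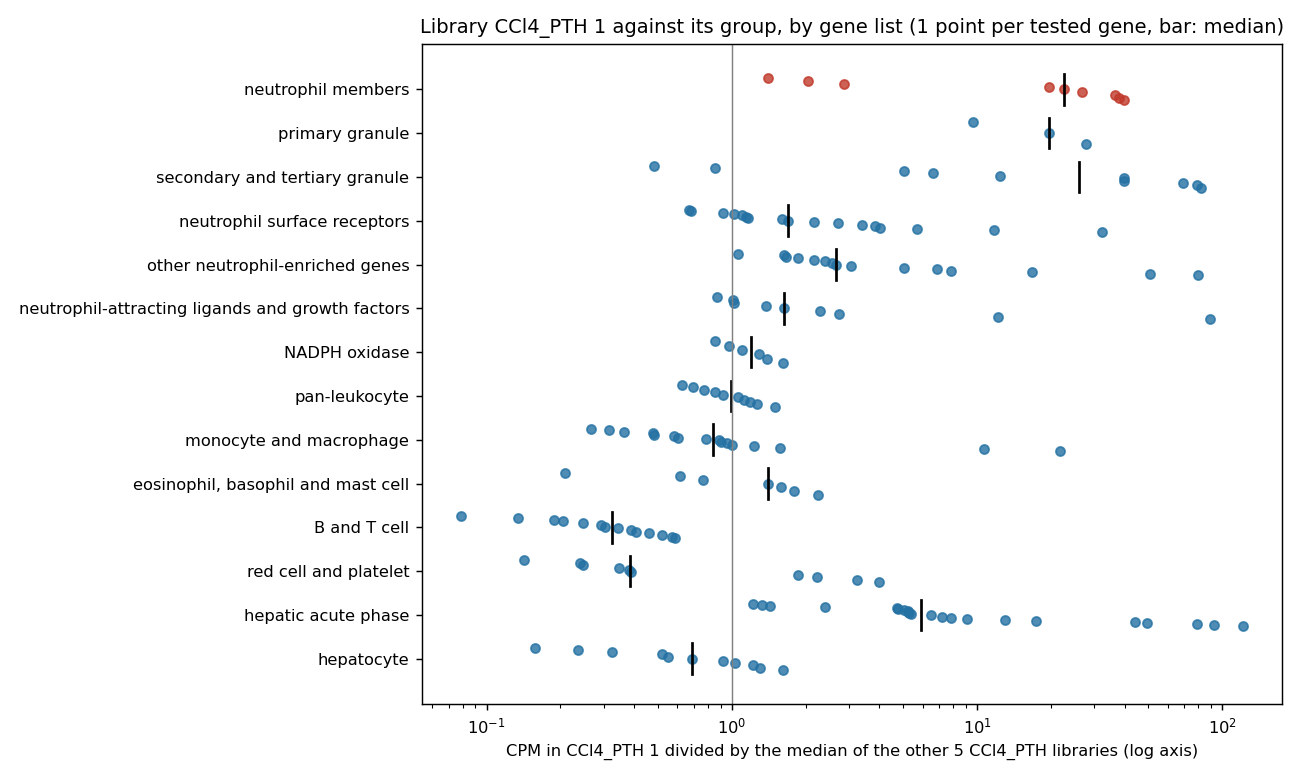
CPM in library CCl4_PTH 1 divided by the median of the other 5 CCl4_PTH libraries, on a log axis, with 1 point for each tested gene of 14 lists and a bar at each list's median. Members, granule genes and acute phase genes reach far above 1, pan-leukocyte genes centre near 1, and B and T cell genes lie below it.

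The 3 receptor genes had higher correlations with macrophage markers than the other tested members had. After each group's mean was subtracted, log2 CPM of Csf3r, Fpr1 and Fpr2 had Pearson's r of 0.80, 0.84 and 0.81 with the mean of the 16 monocyte and macrophage markers over the 18 libraries. The other 6 tested members had r from 0.09 (Retnlg) to 0.32 (S100a8). Without CCl4_PTH 1 the receptors had r of 0.81, 0.88 and 0.84, and the others 0.13 to 0.41. Low counts can hold down r of the other 6, of which Mpo and Cd177 had 0 counts in every control. S100a8 and S100a9 had r of only 0.57 with each other without CCl4_PTH 1. The part of low counts in the difference was not tested. The libraries share depth, tissue piece and group, and these values describe 18 livers with no test. CCl4 4 had both the highest macrophage sum, 1023 CPM, and the highest Csf3r, Fpr1 and Fpr2, while its S100a8 was only 4.06 CPM. CCl4_PTH 1 was the reverse, with 57.7 CPM of S100a8 at 360 CPM of macrophage markers. Relative to Csf1r, the macrophage receptor for CSF-1, Fpr1 had a median of 0.0395 counts per count in control and 0.0448 in CCl4 libraries. For Csf3r these medians were 0.0532 and 0.102, and for Fpr2 0.00681 and 0.0251, so Csf3r and Fpr2 rose more than Csf1r. The Fpr1 ratio was 0.0275 to 0.0539 in CCl4, 0.0252 to 0.0415 in 5 CCl4_PTH libraries and 0.0885 in CCl4_PTH 1. In bulk tissue the share of a receptor's RNA that came from neutrophils was not measured.

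**Figure D4:**
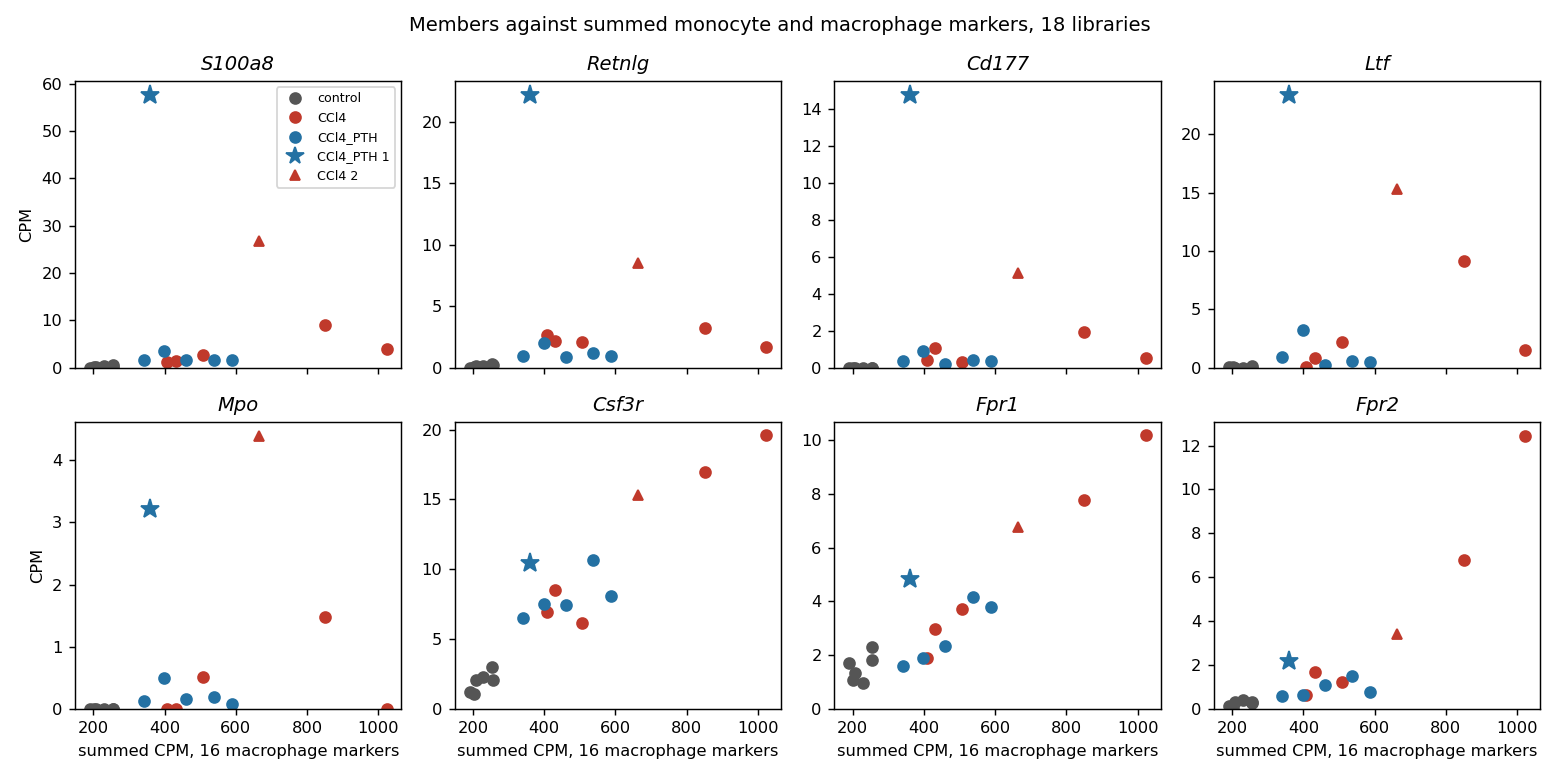
CPM of 8 members against the summed CPM of 16 monocyte and macrophage markers in 18 libraries. Csf3r, Fpr1 and Fpr2 climb with the macrophage sum up to CCl4 4 at 1023 CPM, while S100a8, Retnlg, Cd177 and Ltf peak in CCl4_PTH 1 (star) at 360 CPM.

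The ratios of members to S100a8, which also occurs in monocytes, varied between livers as well. Mpo had 0.195, 0.165 and 0.163 counts per count of S100a8 in CCl4 1, 2 and 7, and 0 in CCl4 4, 5 and 8, where S100a8 had 419, 111 and 114 counts. In CCl4_PTH libraries the same ratio was 0.0524 to 0.140, with 0.0557 in CCl4_PTH 1. Ltf had 0.0263 counts per count of S100a8 in CCl4 8, from only 3 counts of Ltf, and 1.01 in CCl4 7. Cd177 had 0.116 to 0.766 in CCl4 and 0.124 to 0.260 in CCl4_PTH libraries. Retnlg had 0.318 (CCl4 2) to 2.18 (CCl4 8) in CCl4 and 0.385 to 0.731 in CCl4_PTH libraries, with near equal medians of 0.596 and 0.601.

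Most granule genes outside the members also rose in CCl4. Of 11 secondary and tertiary granule genes 10 were tested, Ltf among them, and all 10 rose over control, with a median of 5.34. Mmp8, with 0 counts in every control, could like Ltf pass the filter only through injured libraries. Ngp rose by 7.71 ± 1.88, Lcn2, shared with the hepatic acute phase list, by 7.28 ± 1.39 and Mmp9, the gelatinase, by 2.37 ± 0.58 log2 units. Of 6 primary granule genes only 3 were tested, of which Mpo and Prtn3, proteinase 3 (3.61 ± 0.97, edgeR adjusted p = 0.00505), rose, while Elane, neutrophil elastase, had 1.69 ± 1.25 (edgeR adjusted p = 0.285). Prtn3 overlaps Plppr3 on the other strand. Of 21 surface receptor genes 17 were tested, 13 rose and 1 fell, with a median of 3.05. Cxcr2 rose by 3.38 ± 0.81, and C5ar1, the receptor for complement C5a, by 4.86 ± 0.42 log2 units. Of 22 other genes enriched in neutrophils 15 were tested, 9 rose and 3 fell, with a median of 2.34. Adam8, a surface protease, rose by 5.84 ± 0.61 and Anxa1, annexin A1, by 2.78 ± 0.29 log2 units. The 3 that fell were Wfdc21 (-0.90), G0s2 (-1.83) and Hdc (-0.78), the last 2 named after their values were seen. All 6 subunit genes of the NADPH oxidase, the source of the oxidative burst in neutrophils and macrophages, rose by 2.31 to 2.96. Of 15 ligands and growth factors that attract or sustain neutrophils 9 were tested and 7 rose, with a median of 1.36. Cxcl2 rose by 4.92 ± 1.51 and Cxcl5 by 3.05 ± 0.97, and Cxcl1 did not pass (1.28 ± 0.67, edgeR adjusted p = 0.126). Over all tested genes the median was 0.05, and 26.3% rose and 21.2% fell.

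Markers of other leukocytes rose in the same comparison. All 10 pan-leukocyte genes rose, with a median of 2.54 and with Ptprc (CD45) at 2.62 ± 0.31. Of the 16 monocyte and macrophage genes 13 rose, with a median of 2.57, among them Csf1r (1.69 ± 0.25), Ccr2 (3.82 ± 0.31) and Ly6c2 (3.54 ± 0.45). Summed macrophage markers were 190 to 255 CPM in control and 408 to 1023 CPM in CCl4 libraries. Of the 15 B and T cell genes 14 rose, with a median of 2.37, and 9 without CCl4 4. Of 15 eosinophil, basophil and mast cell genes 7 were tested and 5 rose, while 7 of the 15, Epx and Mcpt8 among them, had 0 counts in all controls and Fcer1a and Mcpt4 had 0 in CCl4 as well. The part of these cells in the rise of single members was not tested.

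In CCl4_PTH against CCl4, where 4.95% of tested genes fell, 7 of 10 pan-leukocyte genes fell with all libraries, and 4 of 6 NADPH oxidase genes, 5 of 17 surface receptor genes and 5 of 16 macrophage genes, while 1 in each of the last 2 lists rose. Laptm5, a lysosomal protein of blood cells, fell by 0.94, Cd68 by 1.08 and C5ar1 by 1.64 log2 units (edgeR adjusted p = 0.0220, 0.00415 and 0.00717). Of 3 primary granule genes 0 fell and of 10 secondary and tertiary granule genes 1, which was Cybb, shared with the oxidase list. These counts rest on single libraries. The 7 pan-leukocyte falls became 0 without CCl4 4, CCl4 7 or CCl4_PTH 7, 1 without CCl4_PTH 3 or CCl4_PTH 6, and 3 without CCl4 2. Without CCl4 4 also 1 oxidase, 1 receptor and 2 macrophage genes fell. Laptm5 lost its call in 5 of 18 fits that left out 1 library, while Cd68 and C5ar1 lost it in 0. With the replicate block 0 genes of these lists fell, and Laptm5, Cd68 and C5ar1 had edgeR adjusted p of 0.201, 0.147 and 0.185. Without CCl4_PTH 1, where 7.06% of tested genes fell, the counts were 7 of 10, 3 of 6, 6 of 17, 7 of 16, 1 of 3 and 3 of 10. The 3 granule genes were Lcn2 (-3.26 ± 0.47, edgeR adjusted p = 0.000291), Mmp8 (-2.01 ± 0.64, edgeR adjusted p = 0.0471) and Chil3, the chitinase-like protein Ym1 (-2.81 ± 0.79, edgeR adjusted p = 0.0214). Lcn2 is shared with the list of hepatic acute phase genes, where it had the lowest value, and its source was not measured. Prtn3 was the primary granule gene (-2.29 ± 0.76, edgeR adjusted p = 0.0449). The differences between lists were not tested. Medians in the fit of 17 libraries were -0.93 for pan-leukocyte, -0.64 for macrophage and -2.07 for secondary and tertiary granule genes, beside -0.03 over all genes. That fit keeps CCl4 2, whose primary (9.85 CPM) and secondary and tertiary granule sums (879 CPM) were the highest of the CCl4 group. Leaving out CCl4 2 as well took the members' median from -1.78 to -0.95. For these granule genes only the fits that keep CCl4 2 are given, so the size of their falls may rest on it.

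The genes whose pattern was most like that of the members were sought among 21675 other genes with a mean of at least 0.1 CPM, by Pearson's r of log2 CPM with the mean of the 9 tested members after subtracting each group's mean. Over 18 libraries the 8 most alike were Ngp (r = 0.90), Mmp8 (0.90), Orm2 (0.88), Ctsg (0.87), the pseudogene Cbx3-ps8 (0.86), Slc2a3 (0.86), Gm38355 (0.86) and Abca13 (0.85). Ngp, Mmp8 and Ctsg are granule genes, and Orm2 is an acute phase gene of hepatocytes. Over the 17 libraries without CCl4_PTH 1 the order was Tmcc2 (0.89), Adgrg1 (0.88), Prg2 (0.88), Elfn2 (0.87), Serpinb6a (0.85), Tdrkh (0.85), Abi3 (0.84) and Ngp (0.83). Ngp was the one gene in both sets of 8. Such r are the top of a long search over few livers and are a description.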

How the data were processed

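Long RNA of 18 mouse livers, 6 per group, was sequenced after removal of ribosomal RNA, per the labels' protocols. The authors deposited expected counts per gene, here whole numbers that are not scaled to depth, as read from the values and the identifiers of the table. The submitters' processing notes list GRCm38 and, without roles, Bowtie2 (2.5.1), HISAT2 (2.2.1), StringTie (2.1.5), FastQC (0.11.9) and cutadapt (4.2). The counting program, its annotation and its use of strand are not given in the sources used here.

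Rounding to whole numbers changed 0 values. Coordinates and exon lengths came from GENCODE M21 for GRCm38, which matched 54723 of the 54752 identifiers. Of these genes 21840 passed filterByExpr (minimum count 10). The 3 groups were fitted together in edgeR 4.0.16 (R 4.3.3) by its robust quasi-likelihood test with TMM factors, with Benjamini-Hochberg adjustment over all tested genes and a threshold of 0.05. The same fit was made on the 17 libraries without CCl4_PTH 1. The script was tested on simulated data. Each SE was taken as the log2 fold change over the root of the F statistic. Against a group at 0, the floor was 3 counts summed over its libraries, a limit from counting error alone. Log2 CPM for correlations had a prior count of 2.

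The smallest chi-square per gene between libraries of a group was 58.6 over 45 pairs, so all counted as separate replicates. The labels describe mice selected from each group, and p-values measure the spread between these 18 livers. Members, the 15 other gene lists and the tests were chosen with earlier results of these data known. All 10 members were named. From each other list at most 2 genes with the smallest p in CCl4 against control and 2 in CCl4_PTH against CCl4 could be named, plus a fixed set of neutrophil, macrophage and acute phase genes and the 8 genes most alike in pattern. Alternatives were DESeq2 1.42.0, limma 3.58.1 (voom with quality weights), other scalings, no filter, no ribosomal loci, 2 groups only, a replicate block, and leaving out each library. The small RNA and circular RNA libraries were not analysed here.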

Additional observations from a re-analysis of the deposited data

Results flagged for a closer look

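Within each group of 6 libraries, 27 sets of CPM values had any spread. In 11 of them the highest library was set apart by more than Dixon's critical ratio for 6 values. That ratio sets apart about 1 in 20 sets of independent, normally distributed values. CPM values are skewed and the members share the same livers, so the 11 cannot be measured against that share. All 11 were high values, and all came from 2 libraries.

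CCl4_PTH 1 was set apart for 7 members, with 57.7 CPM of S100a8, 60.0 CPM of S100a9, 22.2 CPM of Retnlg, 14.8 CPM of Cd177, 23.4 CPM of Ltf, 3.21 CPM of Mpo and 0.553 CPM of Ly6g. The last of these rests on 65 counts. Csf3r, Fpr1 and Fpr2 were not set apart in it.

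CCl4 2 was set apart in its group for 4 members, with 26.7 CPM of S100a8, 8.49 CPM of Retnlg, 5.11 CPM of Cd177 and 4.39 CPM of Mpo. It was also the highest CCl4 library for S100a9 and Ltf, for which CCl4 7 followed close enough that the gap did not pass. Its Lcn2 was 511 CPM, the highest of the CCl4 group.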

How the results depend on the processing

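Against control, CCl4 raised 9 of 9 tested members in edgeR, and 162 of 162 member values from fits that left out 1 library kept both direction and call. Lost calls were Mpo (adjusted p = 0.101) and Ltf (0.183) with limma voom, and Mpo (0.0501) with the replicate block. With 2 groups only, where CCl4_PTH libraries did not enter the filter, 7 members were tested and 7 rose. Mpo and Ltf were among those not tested in that fit. For CCl4_PTH against control no direction changed, and with 2 groups only 8 members were tested and 8 rose. The 9 members called became 3 of 9 with limma voom, all higher. There 4507 of 21840 tested genes rose, and 35.9% were called in either direction. With 1 library left out, 23 of 162 member values lost their call, all of Mpo and Fpr1. The genes called went from 6051 to 9912 with library sizes only and to 3343 with the replicate block. Library sizes alone moved the all-gene median of CCl4 against control from 0.05 to 0.63, with 9 members still higher.

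For CCl4_PTH against CCl4 the 1 member called became 0 with limma voom, library sizes only, no filter, 2 groups only and the replicate block, and 0 to 2 over the fits that left out 1 library. The 2632 genes called became 4167 with limma voom, 1097 with library sizes only and 84 with the replicate block, and 1509 to 3854 with 1 library left out. Calls in the 15 other lists, 34 of which 27 were lower, became 52 with DESeq2, 20 with library sizes only, 16 with 2 groups only and 1 with the replicate block, which called 0 lower. They were 11 to 51 with 1 library left out, the fewest without CCl4 4 and the most without CCl4_PTH 1. Signs changed with limma voom for S100a8 (-1.05), S100a9 (-1.07), Mpo (0.59), Cd177 (-1.16) and Retnlg (-1.20), and with 2 groups only for Ltf (0.001). They changed with the replicate block for S100a8 (-0.38), S100a9 (-0.11), Cd177 (-0.82) and Retnlg (-0.39). Without both CCl4_PTH 1 and CCl4 2, chosen after seeing the data, they changed for S100a8 (-0.91), S100a9 (-0.90), Cd177 (-0.95) and Retnlg (-0.97). With 1 library left out the ranges were -1.91 to 1.59 (S100a8), -1.73 to 1.22 (S100a9), -2.31 to 0.81 (Mpo), -1.78 to 1.70 (Cd177), -1.46 to 0.98 (Retnlg) and -2.13 to 0.79 (Ltf), the lowest without CCl4_PTH 1 and the highest without CCl4 2. Beyond the libraries left out, the cause was not tested.

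Livers with the same replicate number were not alike across groups: r of 13 same-numbered pairs was -0.209 to 0.083, and 0 libraries correlated best with their own number. What the replicate numbers mark is not stated in the sources used here, and why the block lost calls was not tested. Depth limits Ly6g, which had 78 counts over the 6 CCl4 libraries. Mpo had 542, unevenly spread between livers, with 339 in CCl4 2 at 67.2 M total counts. It had 0 in CCl4 4, 5 and 8, at 71.0 M, 82.6 M and 78.2 M.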

Other observations

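Genes of the vessel wall that capture leukocytes were also measured. Of 7 such genes, 6 rose in CCl4 against control, beside 26.3% of tested genes, with a median log2 fold change of 1.95. Sele, the E-selectin on which neutrophils roll, rose by 4.96 ± 0.84, and Vcam1 and Icam1 by 2.87 ± 0.31 and 1.95 ± 0.23. In CCl4_PTH against CCl4, where 4.95% of tested genes fell, 2 of the 7 fell and 5 were not called. The 2 were Vcam1 (-1.46, edgeR adjusted p = 0.00536) and Icam1 (-0.83, edgeR adjusted p = 0.0194), with values of -1.54 and -1.01 without CCl4_PTH 1. Of 18 fits that left out 1 library Vcam1 lost its call in 0 and Icam1 in 2, with an adjusted p of up to 0.0536 without CCl4_PTH 7. Both lost it with the replicate block (edgeR adjusted p = 0.171 for Vcam1 and 0.295 for Icam1). Icam1 also lost it with 2 groups only (edgeR adjusted p = 0.0584). Icam1 was 23.9 CPM in CCl4_PTH 1 against 10.5 to 14.4 CPM in the other 5.

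Of 10 transcription factors of granulocytes, 5 rose and 3 fell in CCl4 against control, beside 26.3% and 21.2% of all tested genes. Runx1 rose by 3.83 ± 0.31, and Cebpa, which hepatocytes also express strongly, fell by 1.33 on the log2 scale.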
